A study of Homo sapiens with 14 samples.

Results

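MCF-10A cells, an immortalised and non-tumorigenic human mammary epithelial line, that received MRTFB dN were compared with MCF-10A cells that received an empty vector, in 6 of the 14 libraries of the series. MRTFB dN is a form of the SRF coactivator MRTFB that cannot bind G-actin and otherwise keeps the wild-type sequence. Its 2 libraries were set against 2 libraries of the empty pMSCV Puro vector and 2 of the empty pMSCV Hygro vector, and the cells of all 6 libraries were infected with a retrovirus and taken on day 2. The series as a whole asks how MRTFB acts on the target genes of TEAD and YAP, and its other 8 libraries carry YAP 5SA or MRTFB dN with further mutations. The labels do not name the vector that carried MRTFB dN, so neither vector alone is its matched control. They also do not say that libraries of a group came from separate cultures. The p-values measure the spread between libraries of a group, and that spread may be technical. It is pooled over the 12 libraries of the fit, which include other constructs of the series.

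Expression was given as FPKM, a fragment number corrected for the length of the gene and the size of the library. Of 27543 loci with a gene name, 12578 reached 1 FPKM in at least 2 of the 6 libraries and were tested. In 2768 of these (22.0%) both MRTFB dN values lay above all 4 vector values, and in 2109 (16.8%) both lay below them. These 4877 loci (38.8%) are the focus here, because for them the choice of vector does not change the direction. Some genes inside the vector range are described too, and list counts include members inside it unless the range is named. Fold changes are log2 differences of the mean log2(FPKM + 1) of MRTFB dN from the mean of both vectors, with the standard error, and understate the change of genes near 0 FPKM. Values of a group are given for replicate 1 and then replicate 2, and a gene is said to have risen or fallen where the adjusted p of limma's moderated test was under 0.05. A p above it does not show that a gene did not change.

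MRTF proteins are coactivators of the transcription factor SRF. In resting cells monomeric actin, or G-actin, binds the N-terminal part of MRTF and keeps it out of the nucleus. When actin is built into filaments MRTF is released and, with SRF, binds CArG boxes near genes for actins, myosin light chains and other parts of the contractile apparatus, many of which define smooth muscle. YAP and TAZ are coactivators of the TEAD factors, answer to cell tension and the Hippo kinases, and share targets such as CTGF and CYR61 with MRTF.

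MKL2, the symbol that the table uses for MRTFB, had 299.5 and 165 FPKM in MRTFB dN, against 6.6 and 3.66 in the Puro and 4.57 and 3.06 in the Hygro vector. MKL2 was thus high in both MRTFB dN libraries, at a log2 fold change of 5.39 ± 0.35, adjusted p = 3.36e-06. Replicate 1 held more of it than replicate 2. Values of the whole gene cannot tell reads of the construct from those of the cell's own MKL2. The related coactivator gene MKL1 had 14 and 13.2 FPKM in MRTFB dN, against 7.08 to 18.8 in the vectors, which overlap (0.17 ± 0.22, adjusted p = 0.59). SRF itself had 62.5 and 51.1 FPKM in MRTFB dN, against 3.13 and 4.58 in the Puro and 7.25 and 16.4 in the Hygro vector, without overlap (2.92 ± 0.32, adjusted p = 1.14e-04).

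The file holds no counts. Judged from the steps between its lowest values, the depth of the MRTFB dN libraries was 0.578 and 0.693 of that of Hygro vector replicate 1, and Puro vector replicate 1 was the shallowest library at 0.314. Puro vector replicate 1 also stood apart in its content: 4780 loci without a gene name reached 1 FPKM in it, against 224 to 669 in the other 5 libraries. Counts of list members against both vectors are followed by their value without a library, or under another setting, where that moved them by more than 1.5 times. All 12 markers of basal mammary epithelium were measured, with a summed level of 30819 to 55248 FPKM in MRTFB dN and 2808 to 26960 FPKM in the vectors. KRT17 alone gave 43206 and 22205 FPKM of this sum in MRTFB dN. Against both vectors 4 of the 12 markers rose while 3, TP63, EGFR and ITGB4, fell, beside 17.7% and 11.3% of all tested loci. For basal markers the number that rose was 2 with no filter on low values and 1 with the vectors as 1 group. It was also smaller without either MRTFB dN replicate, and the number that fell was smaller without MRTFB dN replicate 1. Luminal mammary markers summed to 7247 to 9731 FPKM in MRTFB dN and 505 to 3468 FPKM in the vectors, with KRT8 the most abundant in both MRTFB dN libraries. Of 10 luminal markers 2 stayed under 1 FPKM in all 6 libraries. Of 7 tested 2 rose and 0 fell, beside the same shares of all tested loci. For luminal markers the number that rose was 1 with the vectors as 1 group, and it was also smaller without either MRTFB dN replicate. Most markers of other cell types were near 0: 9 of 10 endothelial, 6 of 10 fibroblast, 7 of 12 leukocyte and 8 of 10 neural markers stayed under 1 FPKM in all 6 libraries. Their summed levels in MRTFB dN and the vectors were 3.2 to 3.51 and 0.454 to 0.831 FPKM for endothelium, 7.6 to 17.2 and 11.05 to 50.5 FPKM for fibroblasts, 398 to 465 and 456 to 816 FPKM for leukocytes, and 142 to 262 and 33.4 to 320.0 FPKM for neural markers. Single genes made up most of 3 of these sums. CD68 gave 446 and 383 FPKM of the leukocyte sum in MRTFB dN and 409 to 793 FPKM in the vectors. TUBB3 gave 254 and 138 FPKM of the neural sum in MRTFB dN and 32.3 to 316 FPKM in the vectors. CDH5 gave 2.77 and 2.78 FPKM of the endothelial sum in MRTFB dN and at most 0.0615 FPKM in the vectors. The part of these other cell types in the results was not tested. In bulk RNA a change in the number of cells of a kind and a change in RNA per cell cannot be told apart.

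Against both vectors, 2227 loci rose (17.7% of those tested) and 1420 fell (11.3%). Of these, 2054 (16.3%) also lay above every vector value and 1191 (9.47%) below every vector value. The counts of list members in the sections that follow are to be read beside these shares. The median log2 fold change was 1.45 in the 2054 loci and -1.19 in the 1191. At 16-fold or more, 122 loci lay above the vectors and 17 below. These sizes are partly set by the filter and the scale. A gene at the floor in the vectors can pass the filter through MRTFB dN alone and can only rise. A fall is limited by the level in the vectors, while a rise has no such limit. Without MRTFB dN replicate 1, the number that rose was 1097 and the number that fell 335, and without MRTFB dN replicate 2 the number that fell was 623. In single-vector comparisons, which share the MRTFB dN libraries, 2719 loci rose (21.6%) and 1834 fell (14.6%) against the Puro vector, and 1451 rose (11.5%) and 825 fell (6.56%) against the Hygro vector. Without Puro vector replicate 1, 1166 loci fell against the Puro vector. Against each vector in its own test 1231 loci (9.79%) rose and 381 (3.03%) fell, and between the empty vectors 638 loci (5.07%) were higher and 960 (7.63%) lower in the Puro than in the Hygro vector. At the limit of the range, OGDH lay just above the vectors, with 76.2 and 54.3 FPKM in MRTFB dN and at most 54.2 FPKM in a vector library, and PRRC2B just missed it, with 38.8 and 33.6 FPKM in MRTFB dN and 33.6 FPKM in Hygro vector replicate 1.

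**Figure D1:**
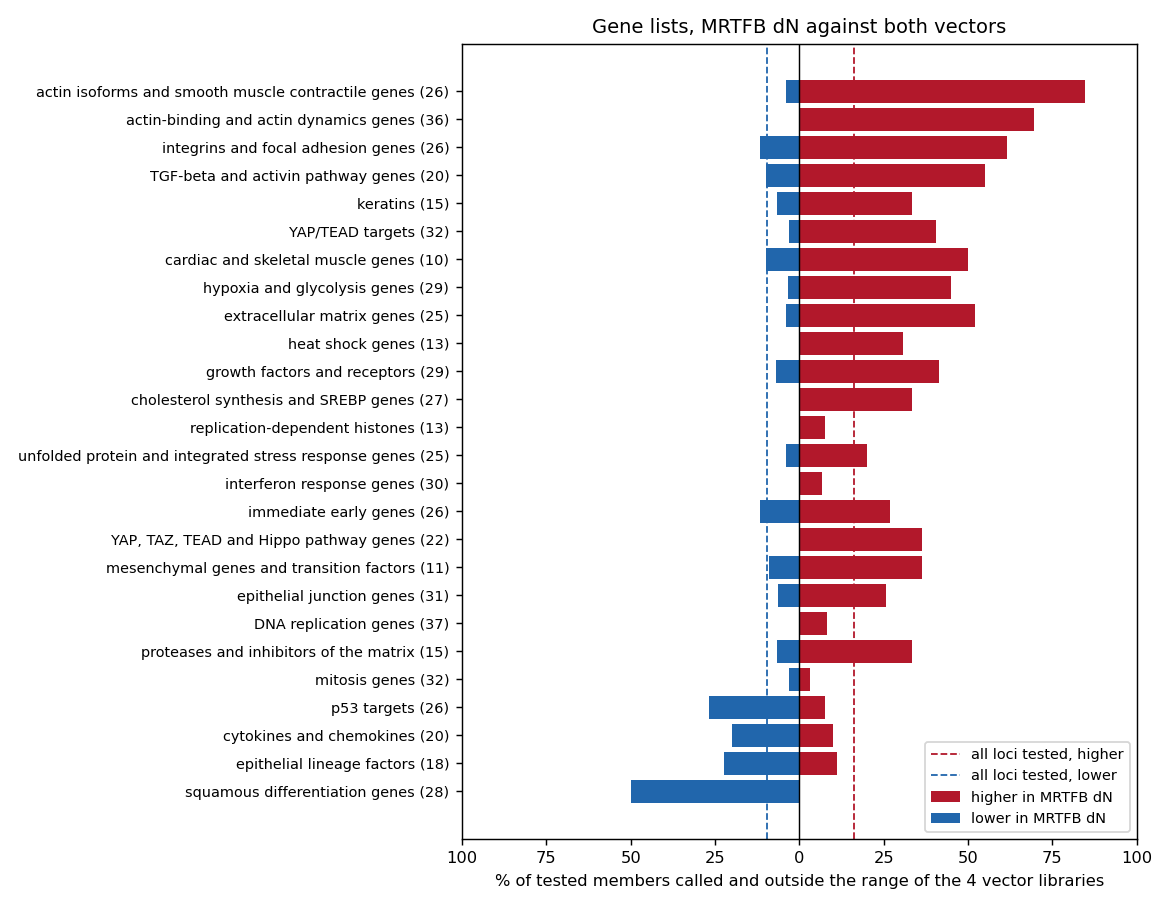
Percent of the tested members of gene lists that rose or fell in MRTFB dN against both vectors and lay outside the range of the 4 vector libraries. Metallothioneins, the SRF, MRTF and TCF genes and the cell type markers are not drawn. Dashed lines mark the same percent over all tested loci, 16.3% above and 9.47% below; contractile and actin-binding genes stand far to the right and squamous differentiation genes to the left.

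Many of the genes with the highest fold changes encode the contractile apparatus of smooth and cardiac muscle, beside others such as NPPB, CTGF and GATM. Of 26 measured genes for actin isoforms and smooth muscle contraction, 22 rose and 1 fell, all outside the vector range, with a median log2 fold change of 3.67 where that of all tested loci was 0.02. Single-vector counts were 23 higher and 1 lower against the Puro vector and 19 higher and 0 lower against the Hygro vector. ACTG2, the enteric smooth muscle actin, had 59843 and 36375 FPKM in MRTFB dN, against 1.2 and 1.12 in the Puro and 0.254 and 2.55 in the Hygro vector (14.42 ± 0.42, adjusted p = 1.53e-08). It stayed under 3 FPKM in every vector library. ACTA2, the vascular smooth muscle actin, had 52274 and 30943 FPKM in MRTFB dN, against 4.26 and 7.25 in the Puro and 8.18 and 8.13 in the Hygro vector (12.34 ± 0.34, adjusted p = 1.39e-08). ACTC1, the cardiac actin, had 1930.1 and 2176 FPKM in MRTFB dN, against 0.0429 and 0.0686 in the Puro and 0 and 0.085 in the Hygro vector (10.93 ± 0.17, adjusted p = 3.00e-10). All 3 actin genes thus stood under 10 FPKM in every vector library, and no MRTFB dN value came near that level. Muscle actin sequences are closely alike, so the counting may have shared reads among them, and their separate levels are uncertain.

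The myosin side moved in the same direction. MYLK, the myosin light chain kinase that starts smooth muscle contraction, had 2725 and 1281 FPKM in MRTFB dN, against 1.82 and 0.381 in the Puro and 0.964 and 2 in the Hygro vector (9.74 ± 0.36, adjusted p = 7.84e-08). MYL7, the atrial regulatory light chain, had 5603 and 4634 FPKM in MRTFB dN, against 0 and 0.212 in the Puro and 0.0843 and 2.44 in the Hygro vector (11.77 ± 0.39, adjusted p = 4.27e-08). MYL9, the smooth muscle regulatory light chain, had 2835 and 2237 FPKM in MRTFB dN, against 0.606 and 1.34 in the Puro and 4.14 and 38.4 in the Hygro vector (8.90 ± 0.63, adjusted p = 5.30e-06). Hygro vector replicate 2 was the highest vector library for both light chains, yet far below MRTFB dN. LMOD1, a leiomodin that nucleates actin filaments in smooth muscle, had 461 and 319 FPKM in MRTFB dN, against 0.0318 to 0.159 in the vectors (8.46 ± 0.20, adjusted p = 4.21e-09). Of the tropomyosins, which line the actin filament, TPM1 had 8948 and 5667 FPKM in MRTFB dN, against 17.3 to 118 in the vectors (7.79 ± 0.56, adjusted p = 6.45e-06). TAGLN, or SM22, a marker of early smooth muscle that shares its locus in the table with PAFAH1B2 and SIDT2, had 41587 and 22309 FPKM in MRTFB dN, against 25.5 to 271 in the vectors (9.04 ± 0.57, adjusted p = 2.82e-06). The cytoplasmic actins, which all cells use, also rose: ACTB had 22741 and 13683 FPKM in MRTFB dN, against 336 to 2827 in the vectors (4.28 ± 0.65, adjusted p = 9.75e-04). The 1 member that fell was MYH11, the smooth muscle myosin heavy chain, with 0.28 and 0.403 FPKM in MRTFB dN, against 9.35 and 2.6 in the Puro and 0.637 and 0.537 in the Hygro vector (-1.22 ± 0.34, adjusted p = 0.0247). Its high values lay in the Puro vector, and against the Hygro vector its log2 fold change was -0.24 (adjusted p = 0.733), so this marker of mature smooth muscle did not rise with the rest. For contractile genes the number that fell was 0 with no filter on low values or in the fit on the 6 compared libraries or with the vectors as 1 group or without either MRTFB dN replicate or Hygro vector replicate 1. For MYH11 the adjusted p was 0.17 without MRTFB dN replicate 1, 0.0964 without MRTFB dN replicate 2, 0.0554 without Hygro vector replicate 1, 0.0547 with no filter on low values, 0.0808 in the fit on the 6 compared libraries and 0.194 with the vectors as 1 group.

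Of 28 cardiac and skeletal muscle genes listed, only 10 reached 1 FPKM in at least 2 of the 6 libraries and were tested. Among these 10, 5 rose and 1 fell, and a gene could enter this count through MRTFB dN alone. NEXN, an actin-binding protein of the Z disc, had 133 and 122 FPKM in MRTFB dN, against 0.443 to 1.78 in the vectors (5.97 ± 0.27, adjusted p = 2.66e-07). CSRP1, a LIM protein of smooth muscle, had 4399 and 2695 FPKM in MRTFB dN, against 20.6 to 199 in the vectors (5.98 ± 0.49, adjusted p = 1.57e-05). NPPB, which encodes the natriuretic peptide BNP of the heart and is in none of the lists, had 1113 and 1304 FPKM in MRTFB dN, against 0.376 and 0 in the Puro and 0.0846 and 0 in the Hygro vector (10.09 ± 0.19, adjusted p = 7.11e-10). The fall was in TNNI2, fast skeletal troponin I, at 11.2 and 5.72 FPKM in MRTFB dN, against 77.4 to 208 in the vectors (-3.80 ± 0.50, adjusted p = 4.45e-04), in a locus that the table shares with another gene. GATM, the first enzyme of creatine synthesis, also stood among the 12 highest changes, with 1486 and 1074 FPKM in MRTFB dN, against 2.27 to 5.86 in the vectors (8.24 ± 0.26, adjusted p = 3.25e-08).

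**Figure D2:**
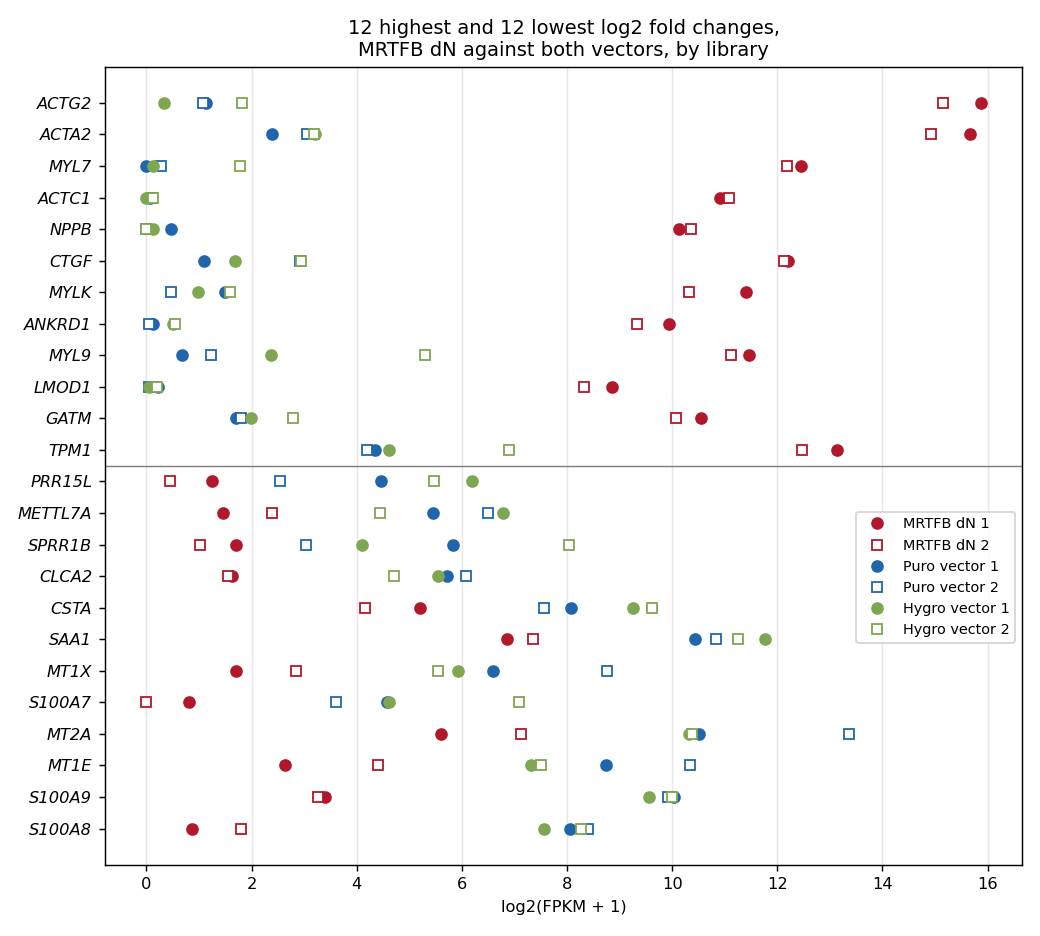
log2(FPKM + 1) of the 12 genes with the highest and the 12 with the lowest log2 fold change in MRTFB dN, 1 point per library (MRTFB dN red, Puro vector blue, Hygro vector green; filled for replicate 1 and open for replicate 2). The MRTFB dN points stand apart from all 4 vector points in each gene because only genes outside the vector range were eligible.

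Promoters of 4 of these contractile genes and of the YAP/TEAD targets CTGF and ANKRD1 are printed to show where the letters of SRF and TEAD sites lie. They run from 250 bases before to 50 bases after the start of the gene, 5′ to 3′ on the gene's strand, from RefSeq on GRCh38.p14, which is not the build of the FPKM table. Capitals mark CArG boxes, a run of A and T between CC and GG, and the TEAD core GGAATG, read on either strand, so CATTCC is the same core on the reverse strand. ACTG2 (chr2:73892758-73893057, plus strand) holds 2 CArG boxes, ACTC1 (chr15:34795500-34795799, minus strand) holds 1, and MYL7 (chr7:44141283-44141582, minus strand) and MYLK (chr3:123620499-123620798, minus strand) hold 1 CArG box and 1 GGAATG each. CTGF, now named CCN2 (chr6:131951323-131951622, minus strand), holds 3 GGAATG cores and ANKRD1 (chr10:90921038-90921337, minus strand) holds 2, both without a CArG box in this window. The 4 contractile genes printed do not stand for the rest. ACTA2, LMOD1, TPM1, NEXN and CSRP1, which also rose, hold 0 CArG boxes in this window. SRF, which rose, and EGR1, which did not pass the test, hold 2 each.
ACTG2: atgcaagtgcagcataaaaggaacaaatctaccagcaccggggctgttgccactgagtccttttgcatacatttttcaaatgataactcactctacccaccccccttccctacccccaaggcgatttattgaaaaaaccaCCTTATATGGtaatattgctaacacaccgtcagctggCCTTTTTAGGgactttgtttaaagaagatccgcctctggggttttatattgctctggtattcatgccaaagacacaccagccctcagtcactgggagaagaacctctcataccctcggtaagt
ACTC1: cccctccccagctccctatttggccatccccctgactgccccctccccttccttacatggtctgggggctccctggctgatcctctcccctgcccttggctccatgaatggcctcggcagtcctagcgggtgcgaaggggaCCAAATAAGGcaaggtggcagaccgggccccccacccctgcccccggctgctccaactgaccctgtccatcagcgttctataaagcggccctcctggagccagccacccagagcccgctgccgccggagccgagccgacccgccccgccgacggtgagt
MYL7: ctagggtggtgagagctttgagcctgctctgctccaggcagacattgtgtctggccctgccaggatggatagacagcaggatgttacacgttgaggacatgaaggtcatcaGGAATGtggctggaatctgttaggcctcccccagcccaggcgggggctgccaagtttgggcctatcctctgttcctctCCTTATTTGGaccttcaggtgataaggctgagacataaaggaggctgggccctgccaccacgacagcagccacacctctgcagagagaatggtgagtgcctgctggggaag
MYLK: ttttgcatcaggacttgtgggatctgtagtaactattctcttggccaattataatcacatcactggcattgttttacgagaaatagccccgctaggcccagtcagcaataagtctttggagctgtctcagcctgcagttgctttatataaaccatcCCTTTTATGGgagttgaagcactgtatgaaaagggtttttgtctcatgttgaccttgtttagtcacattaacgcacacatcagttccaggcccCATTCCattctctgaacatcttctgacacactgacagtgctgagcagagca
CTGF: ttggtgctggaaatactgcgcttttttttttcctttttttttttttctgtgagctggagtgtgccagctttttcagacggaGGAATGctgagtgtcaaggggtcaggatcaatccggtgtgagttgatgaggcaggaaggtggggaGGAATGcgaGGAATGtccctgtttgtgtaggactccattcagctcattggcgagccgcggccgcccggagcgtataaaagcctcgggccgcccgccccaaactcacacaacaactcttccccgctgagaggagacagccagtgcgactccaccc
ANKRD1: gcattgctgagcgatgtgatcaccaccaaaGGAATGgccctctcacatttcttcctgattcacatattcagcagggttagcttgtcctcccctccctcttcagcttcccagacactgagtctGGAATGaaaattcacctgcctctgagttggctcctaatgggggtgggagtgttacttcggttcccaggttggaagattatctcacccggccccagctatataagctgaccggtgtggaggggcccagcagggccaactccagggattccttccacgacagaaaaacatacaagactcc

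Over promoters of this length, 351 of all 27305 in the RefSeq table (1.29%) held a CArG box. Of 9959 tested protein-coding loci with 1 gene, leaving out chromosome 8, 8548 (85.8%) were matched to a promoter, and 100 of those (1.17%) held one. The share went with the size of the rise. It was 10 of 79 (12.7%) for loci that rose 16-fold or more, 21 of 319 (6.58%) for those that rose 4-fold to 16-fold, and 19 of 1056 (1.80%) for those that rose less, all outside the vector range. It was 2 of 726 (0.275%) for loci that fell and 48 of 6368 (0.754%) for the rest. The 10 genes were ACTG2, MYL7, ACTC1, MYLK, CHI3L1, LMNTD1, GPR183, FLNA, TPM4 and GBP1. GGAATG was found in 17 of 79 (21.5%) of the loci that rose 16-fold or more, 14.7% of those that rose 4-fold to 16-fold, 10.98% of those that rose less, 10.3% of those that fell and 10.4% of the rest. The AP-1 motif TGACTCA, also searched on both strands, was in 3.51% of the promoters of loci that rose and 4.96% of those that fell, against 3.22% of all tested. A match is a stretch of letters and not a measured site.

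**Figure D3:**
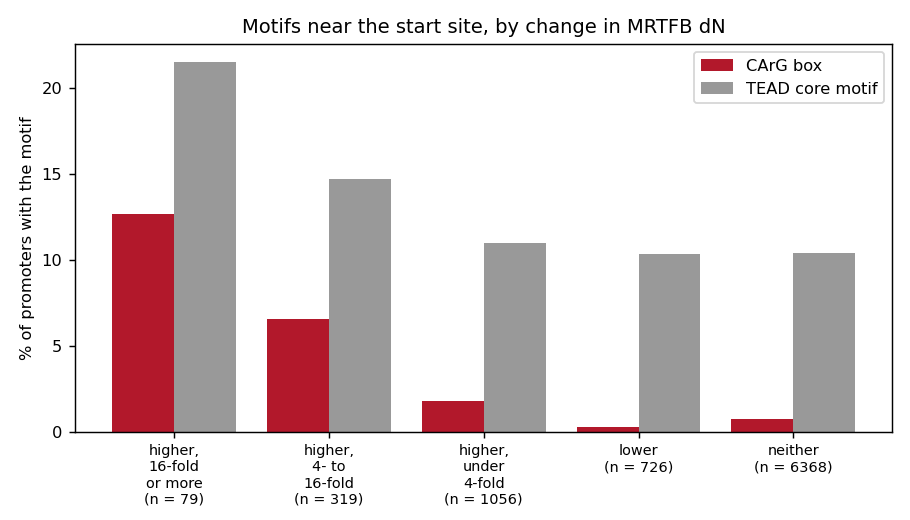
Percent of promoters with a CArG box (red) or the TEAD core GGAATG (grey), by the change of the gene in MRTFB dN against both vectors, where higher and lower genes passed the test outside the vector range and n is the number of promoters. The CArG share is 12.7% in genes that rose 16-fold or more and 0.275% in genes that fell.

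Genes that bind, cross-link and turn over actin filaments rose as a group. Of 36 measured, 28 rose and 0 fell against both vectors, 25 of them above every vector value, with a median log2 fold change of 2.29. Against the Puro vector 30 rose and 0 fell, and against the Hygro vector 17 rose and 1 fell. For actin-binding genes the number that rose was 18 without MRTFB dN replicate 1. Of these actin-binding genes, the number that fell was 1 without Puro vector replicate 1. FLNA, filamin A, which links crossed filaments, had 3474 and 2409 FPKM in MRTFB dN, against 57.4 and 112 in the Puro and 113 and 549 in the Hygro vector (4.34 ± 0.59, adjusted p = 4.86e-04). ACTN1, alpha-actinin, which bundles them, had 1891 and 1449 FPKM in MRTFB dN, against 38.1 and 86 in the Puro and 73.7 and 209 in the Hygro vector (4.28 ± 0.46, adjusted p = 1.14e-04). In both genes the 2 MRTFB dN libraries stood above all vectors, with Hygro vector replicate 2 the nearest. VIL1, villin, a bundling protein of the microvilli of gut epithelium, had 42.3 and 22.5 FPKM in MRTFB dN, against 0 to 0.119 in the vectors (4.95 ± 0.23, adjusted p = 3.83e-07). GSN, gelsolin, which cuts filaments, had 418 and 349 FPKM in MRTFB dN, against 6.61 to 32.2 in the vectors (4.48 ± 0.28, adjusted p = 2.46e-06). VCL, vinculin, which ties actin to adhesions, had 464 and 481 FPKM in MRTFB dN, against 30.4 to 113 in the vectors (3.20 ± 0.32, adjusted p = 7.12e-05). Not every member passed: PFN2, a profilin, had 40.7 and 27 FPKM in MRTFB dN, against 18.3 to 27.9 in the vectors (0.41 ± 0.29, adjusted p = 0.319). TMSB10, a thymosin that binds G-actin, had 4751 and 3559.8 FPKM in MRTFB dN, against 1204 to 5576 in the vectors (0.54 ± 0.65, adjusted p = 0.555).

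Integrins and the proteins of focal adhesions, which fix the cytoskeleton to the matrix, followed. Of 26 measured, 16 rose and 3 fell, all outside the vector range, with a median log2 fold change of 1.78. For the adhesion genes the number that fell was 1 without MRTFB dN replicate 1. ITGA5, the fibronectin receptor subunit, which shares its locus with ZNF385A, had 5547 and 5393 FPKM in MRTFB dN, against 27.9 and 231 in the Puro and 37.9 and 79.7 in the Hygro vector (6.34 ± 0.69, adjusted p = 1.16e-04). ITGA1, a collagen receptor subunit that also shares its locus with another gene, had 578 and 579 FPKM in MRTFB dN, against 13.1 to 26 in the vectors (5.00 ± 0.26, adjusted p = 6.34e-07). ITGB3, of the vitronectin receptor, had 17.2 and 26.5 FPKM in MRTFB dN, against 0.0263 to 0.215 in the vectors (4.32 ± 0.20, adjusted p = 3.21e-07). FERMT2, kindlin-2, an activator of integrins, had 139 and 135 FPKM in MRTFB dN, against 4.59 to 8.32 in the vectors (4.24 ± 0.18, adjusted p = 2.34e-07). Of those that fell, ITGB4, which joins the hemidesmosome of basal epithelium, had 69.9 and 90.7 FPKM in MRTFB dN, against 150.4 to 419 in the vectors (-1.79 ± 0.43, adjusted p = 0.0125). For ITGB4 the adjusted p was 0.13 without MRTFB dN replicate 1 and 0.0546 without MRTFB dN replicate 2. FERMT1, the epithelial kindlin, had 3.18 and 3.11 FPKM in MRTFB dN, against 6.47 to 11.5 in the vectors (-1.26 ± 0.24, adjusted p = 0.00371), beside ITGA2, a collagen receptor subunit (-1.14 ± 0.31, adjusted p = 0.0204). For ITGA2 the adjusted p was 0.218 without MRTFB dN replicate 1 and 0.0501 in the fit on the 6 compared libraries. ITGB6, an integrin subunit of epithelium, rose, with 70.4 and 90.9 FPKM in MRTFB dN, against 11.5 and 24.6 in the Puro and 51.2 and 60.2 in the Hygro vector (1.35 ± 0.29, adjusted p = 0.0071). For ITGB6 that p was 0.0692 without MRTFB dN replicate 2 and 0.104 with the vectors as 1 group.

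In the extracellular matrix 13 of 25 genes rose and 1 fell, again all outside the vector range. For the matrix genes the number that fell was 2 with median-of-ratios scaling, 0 without either MRTFB dN replicate, and 3 without Puro vector replicate 1. FN1, fibronectin, the ligand of ITGA5, had 771 and 1713 FPKM in MRTFB dN, against 3.38 and 64.3 in the Puro and 24.9 and 53.9 in the Hygro vector (5.51 ± 0.89, adjusted p = 0.00154). Its libraries spread widely within each group, and the lower MRTFB dN value was still above the highest vector value. COL8A1, a short-chain collagen of vessel walls in a locus with several genes, had 2180.2 and 2284 FPKM in MRTFB dN, against 2.5 to 37.7 in the vectors (7.97 ± 0.64, adjusted p = 1.39e-05). TNC, tenascin C, likewise in a shared locus, had 234 and 288 FPKM in MRTFB dN, against 0.873 to 22.7 in the vectors (5.85 ± 0.76, adjusted p = 3.77e-04), and the basement membrane collagen gene COL4A1 had 332 and 501 FPKM in MRTFB dN, against 5.4 to 30.8 in the vectors (4.90 ± 0.68, adjusted p = 5.81e-04). The member that fell was DCN, decorin, at 0.182 and 0.387 FPKM in MRTFB dN, against 2.1 to 13.7 in the vectors (-2.09 ± 0.47, adjusted p = 0.00933). For DCN the adjusted p was 0.108 without MRTFB dN replicate 1 and 0.06 without MRTFB dN replicate 2. A pair of laminin genes of the basement membrane, LAMA3 and LAMB3, had log2 fold changes of -0.16 and -0.00, with adjusted p of 0.798 and 0.998. Of 15 proteases and inhibitors of the matrix, 6 rose and 3 fell. For the protease list the number that rose was 3 without either MRTFB dN replicate. Of its members, the number that fell was 1 with the vectors as 1 group or without MRTFB dN replicate 2. ADAMTS1, a secreted metalloprotease, had 133 and 151 FPKM in MRTFB dN, against 0.135 to 3.1 in the vectors (6.40 ± 0.43, adjusted p = 3.63e-06). PLAT, tissue plasminogen activator, had 0.731 and 0.989 FPKM in MRTFB dN, against 2.96 to 38.3 in the vectors (-2.37 ± 0.58, adjusted p = 0.014). For PLAT the adjusted p was 0.137 without MRTFB dN replicate 1 and 0.0813 without MRTFB dN replicate 2.

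Mesenchymal genes split. Of 11 measured, 5 rose and 3 fell. For the mesenchymal list the number that fell was 1 with the vectors as 1 group or without MRTFB dN replicate 2, and 0 without MRTFB dN replicate 1. VIM, vimentin, the intermediate filament of mesenchymal cells, had 461 and 584 FPKM in MRTFB dN, against 1.32 and 15.3 in the Puro and 0.742 and 2.69 in the Hygro vector (7.04 ± 0.72, adjusted p = 7.79e-05). CDH2, N-cadherin, had 30.5 and 25.4 FPKM in MRTFB dN, against 0.492 to 3.06 in the vectors (3.66 ± 0.40, adjusted p = 1.11e-04). Both were low in every vector library and rose without overlap. S100A4, a calcium-binding protein of motile cells in a shared locus, moved the other way, with 198 and 182 FPKM in MRTFB dN, against 951 to 11571 in the vectors (-3.85 ± 0.84, adjusted p = 0.00774). For S100A4 the adjusted p was 0.0842 without MRTFB dN replicate 1 and 0.0702 without MRTFB dN replicate 2. TWIST1, a factor of epithelial-mesenchymal transition, fell against the Puro vector (-1.65, adjusted p = 4.67e-04) and had a log2 fold change of -0.03 against the Hygro vector (adjusted p = 0.942). SNAI2, another such factor, had 5.18 and 5.54 FPKM in MRTFB dN, against 3.63 to 12.5 in the vectors (-0.21 ± 0.29, adjusted p = 0.612). CDH1, E-cadherin, had 312 and 250.1 FPKM in MRTFB dN, against 79.3 and 94.4 in the Puro and 229 and 223 in the Hygro vector, above the vectors at 0.99 ± 0.34, adjusted p = 0.0498. For CDH1 the adjusted p was between 0.049 and 0.273 in the fits without 1 library, 0.0628 with no filter on low values, 0.0503 with median-of-ratios scaling, 0.0986 in the fit on the 6 compared libraries and 0.198 with the vectors as 1 group. Vimentin and N-cadherin rose in this comparison, and the log2 fold change of E-cadherin was positive against each vector, at 1.68 against the Puro vector and 0.31 against the Hygro vector.

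**Figure D4:**
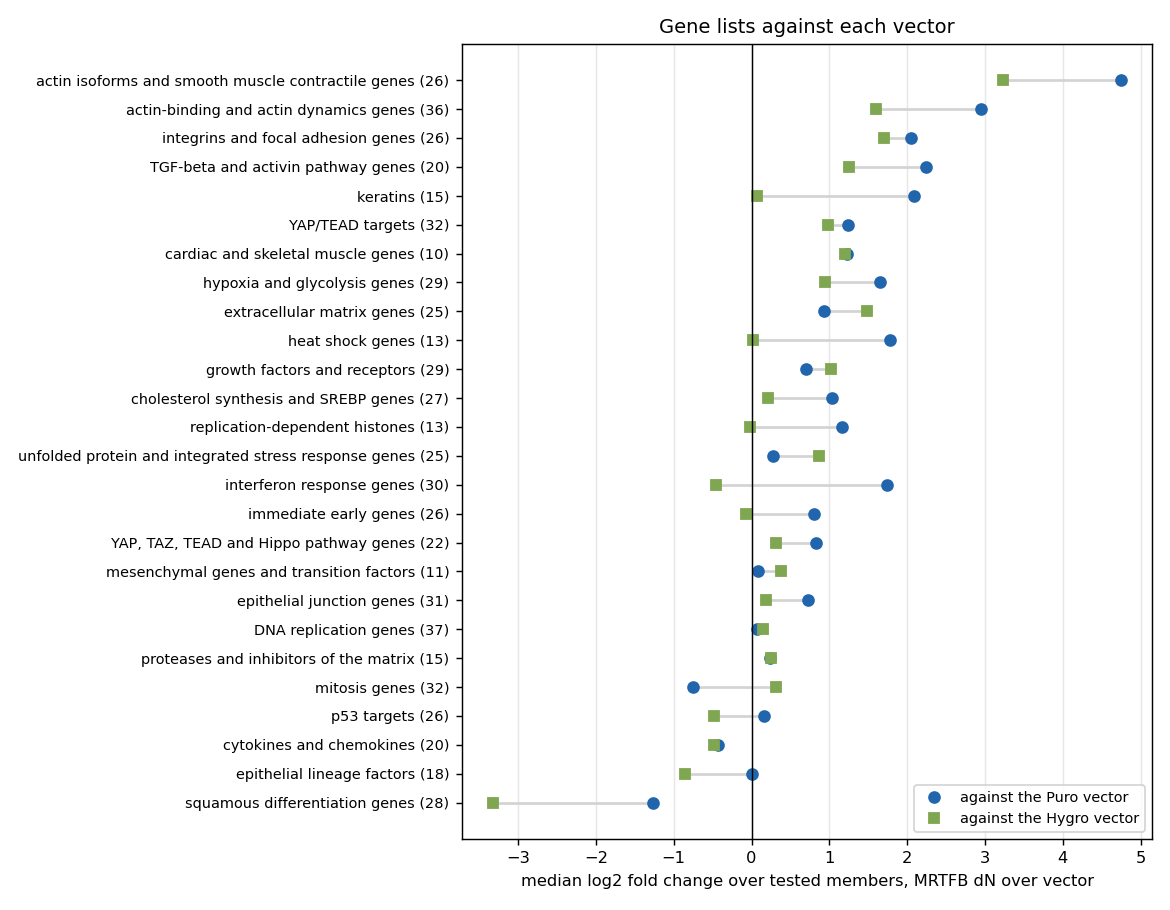
Median log2 fold change of the tested members of gene lists, in MRTFB dN against the Puro vector and against the Hygro vector, which share the MRTFB dN libraries. Metallothioneins, the SRF, MRTF and TCF genes and the cell type markers are not drawn. The squamous differentiation list lies at -1.27 against the Puro vector and -3.32 against the Hygro vector; the contractile list lies at 4.75 and 3.24.

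Of 32 targets of YAP and TEAD, 16 rose and 2 fell against both vectors, 13 and 1 of them outside the vector range, with a median log2 fold change of 1.29. For the YAP/TEAD targets the number that fell was 1 with no filter on low values or in the fit on the 6 compared libraries or without Hygro vector replicate 1 or MRTFB dN replicate 2 or Puro vector replicate 2, and 0 with the vectors as 1 group or without MRTFB dN replicate 1. CTGF, a secreted matricellular protein, had 4712 and 4472 FPKM in MRTFB dN, against 1.12 and 6.54 in the Puro and 2.23 and 6.65 in the Hygro vector (10.01 ± 0.51, adjusted p = 6.06e-07). CYR61, its relative, had 2760.0 and 2491 FPKM in MRTFB dN, against 5.85 and 26.9 in the Puro and 16.4 and 35.1 in the Hygro vector (7.14 ± 0.54, adjusted p = 8.72e-06). ANKRD1, a nuclear and sarcomeric ankyrin repeat protein, had 982 and 639 FPKM in MRTFB dN, against 0.0849 and 0.034 in the Puro and 0.422 and 0.457 in the Hygro vector (9.33 ± 0.31, adjusted p = 4.23e-08). These 3 targets lay far above all vector libraries in both MRTFB dN libraries. EDN1, the vasoconstrictor endothelin, had 434 and 477 FPKM in MRTFB dN, against 3.86 to 32.4 in the vectors (5.31 ± 0.42, adjusted p = 1.30e-05). THBS1, thrombospondin, had 269.8 and 396 FPKM in MRTFB dN, against 8.94 to 52.2 in the vectors (3.87 ± 0.68, adjusted p = 0.00236). CAV1, the coat protein of caveolae, had 2651 and 1565 FPKM in MRTFB dN, against 47.5 to 294 in the vectors (4.13 ± 0.67, adjusted p = 0.0015). Not all targets passed the test: AXL, a receptor kinase, had 8.78 and 11.2 FPKM in MRTFB dN, against 2.75 to 58.9 in the vectors, which overlap (0.12 ± 0.63, adjusted p = 0.907). The targets that fell were DOCK5, a guanine exchange factor (-1.29 ± 0.31, adjusted p = 0.0129), and TGFBR2, a TGF-beta receptor that overlapped the vectors (-1.28 ± 0.42, adjusted p = 0.0448). For TGFBR2 the adjusted p was between 0.00655 and 0.226 in the fits without 1 library, 0.0791 with no filter on low values, 0.119 in the fit on the 6 compared libraries and 0.142 with the vectors as 1 group. For DOCK5 the adjusted p was 0.18 without MRTFB dN replicate 1 and 0.0511 with the vectors as 1 group.

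Of the 22 genes of the Hippo pathway itself, 8 rose and 0 fell, all 8 above every vector value. For Hippo pathway genes the number that rose was 2 without MRTFB dN replicate 1, and 4 without MRTFB dN replicate 2. Of these Hippo pathway genes, the number that fell was 1 without Hygro vector replicate 2. WWTR1, which encodes TAZ, had 12 and 11.9 FPKM in MRTFB dN, against 1.92 to 3.71 in the vectors (1.72 ± 0.25, adjusted p = 8.21e-04). YAP1 had 40 and 39.4 FPKM in MRTFB dN, against 19.2 to 32.4 in the vectors, above the vectors but not past the test (0.76 ± 0.35, adjusted p = 0.125). Of the TEAD genes, TEAD1 had 26.1 and 23.5 FPKM in MRTFB dN, against 6.06 to 11.2 in the vectors (1.51 ± 0.30, adjusted p = 0.00478). TEAD2 had 14.3 and 13.9 FPKM in MRTFB dN, against 2.61 to 9.99 in the vectors (1.41 ± 0.38, adjusted p = 0.0213) and TEAD4 had 19.3 and 14.6 FPKM in MRTFB dN, against 4.4 to 8.89 in the vectors (1.35 ± 0.27, adjusted p = 0.00549). TEAD3 overlapped the vectors, with 11.8 and 12.7 FPKM in MRTFB dN, against 8.37 to 16.3 in the vectors (0.02 ± 0.21, adjusted p = 0.952). Adjusted p was 0.0637 without MRTFB dN replicate 1 for TEAD1, 0.155 without MRTFB dN replicate 1, 0.106 without MRTFB dN replicate 2, 0.0503 without Puro vector replicate 1 and 0.0705 in the fit on the 6 compared libraries for TEAD2 and 0.0842 without MRTFB dN replicate 1 for TEAD4. AMOTL2, a scaffold that holds YAP at junctions and is itself a target, had 51.8 and 41.9 FPKM in MRTFB dN, against 8.57 and 7.89 in the Puro and 28 and 23.7 in the Hygro vector (1.60 ± 0.27, adjusted p = 0.00201). Its log2 fold change was 2.37 against the Puro vector (adjusted p = 4.93e-04) and 0.83 against the Hygro vector (adjusted p = 0.0987), and the vectors differed (adjusted p = 0.0201). AMOT, its relative, also depended on the vector: it had 1.46 and 1.02 FPKM in MRTFB dN, against 1.45 and 0.23 in the Puro and 71.3 and 5.85 in the Hygro vector, and it fell against the Hygro vector (-3.32, adjusted p = 0.0207).

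Of 20 genes of the TGF-beta and activin pathway, 12 rose and 3 fell, 11 and 2 of them outside the vector range, with a median log2 fold change of 1.67. For the TGF-beta list the number that fell was 0 in the fit on the 6 compared libraries or without MRTFB dN replicate 1, and 1 with the vectors as 1 group or without MRTFB dN replicate 2. BMP2, a bone morphogenetic protein, had 520.1 and 361 FPKM in MRTFB dN, against 2.59 and 4.89 in the Puro and 2 and 2.6 in the Hygro vector (6.80 ± 0.26, adjusted p = 9.44e-08). INHBA, the activin A subunit, had 145 and 159.8 FPKM in MRTFB dN, against 0.933 to 7.3 in the vectors (5.21 ± 0.53, adjusted p = 7.62e-05). TGFB2, in a shared locus, had 54.6 and 53.2 FPKM in MRTFB dN, against 0.373 to 3.43 in the vectors (4.52 ± 0.43, adjusted p = 4.72e-05). The inhibitors of the pathway were higher too: SMAD7 had 12.3 and 19.3 FPKM in MRTFB dN, against 1.04 to 2.78 in the vectors (2.65 ± 0.26, adjusted p = 6.05e-05) and SMAD6 had 2.11 and 3.75 FPKM in MRTFB dN, against 0.0444 to 0.317 in the vectors (1.70 ± 0.22, adjusted p = 3.81e-04). SMAD3, a signal carrier of TGF-beta receptors, fell, with 3.01 and 3.41 FPKM in MRTFB dN, against 4.44 to 7.81 in the vectors (-0.80 ± 0.22, adjusted p = 0.0228). TGFB1 had 19.6 and 23.5 FPKM in MRTFB dN, against 14.1 to 48.5 in the vectors (-0.40 ± 0.52, adjusted p = 0.592), which overlap. For SMAD3 the adjusted p was 0.16 without MRTFB dN replicate 1, 0.0772 without MRTFB dN replicate 2 and 0.0758 in the fit on the 6 compared libraries.

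Of 29 growth factors and their receptors, 13 rose and 2 fell, 12 and 2 of them outside the range. For the growth factor list the number that fell was 0 without MRTFB dN replicate 1, and 4 without Puro vector replicate 1. FGF1, a fibroblast growth factor, had 77.3 and 56.8 FPKM in MRTFB dN, against 0.89 and 0.163 in the Puro and 0.0285 and 0.101 in the Hygro vector (5.74 ± 0.23, adjusted p = 1.28e-07). PDGFB, a platelet-derived growth factor chain, had 67.2 and 66.6 FPKM in MRTFB dN, against 0.138 to 2.24 in the vectors (5.09 ± 0.33, adjusted p = 3.36e-06). NRG1, a ligand of ERBB3, had 20 and 15.5 FPKM in MRTFB dN, against 0.206 to 1.26 in the vectors (3.40 ± 0.25, adjusted p = 6.52e-06). IGFBP7, a binding protein of insulin-like growth factors, had 376 and 391 FPKM in MRTFB dN, against 25.8 and 90.2 in the Puro and 6.58 and 11.8 in the Hygro vector (4.12 ± 0.48, adjusted p = 1.92e-04), with higher values in the Puro vector than in the Hygro vector (log2 difference of Puro from Hygro 2.33, adjusted p = 0.0302). The receptors EGFR and NOTCH1 were the members that fell, with 13.6 and 16.6 FPKM in MRTFB dN, against 23.2 to 46.9 in the vectors (-1.04 ± 0.22, adjusted p = 0.00626) and 5.98 and 7.45 FPKM in MRTFB dN, against 11.9 to 47.4 in the vectors (-1.93 ± 0.39, adjusted p = 0.00528). Of 20 cytokines and chemokines, 2 rose and 4 fell, beside 17.7% and 11.3% of all tested loci. For the cytokine list the number that fell was 2 with no filter on low values or without Hygro vector replicate 2 or Puro vector replicate 2, and 1 with the vectors as 1 group or without either MRTFB dN replicate. CXCL11, an interferon-inducible chemokine, had 24.3 and 9.91 FPKM in MRTFB dN, against 0 to 3.84 in the vectors (3.27 ± 0.51, adjusted p = 0.00115). IL1RN, the interleukin-1 receptor antagonist, had 0.737 and 0.22 FPKM in MRTFB dN, against 7.44 and 1.28 in the Puro and 91.3 and 49.3 in the Hygro vector (-3.57 ± 0.62, adjusted p = 0.00237), and it was lowest in both MRTFB dN libraries. For IL1RN the adjusted p was 0.0649 with the vectors as 1 group. CCL20, a chemokine, had 0.529 and 3.54 FPKM in MRTFB dN, against 6.43 to 232 in the vectors (-3.41 ± 1.07, adjusted p = 0.0379). For CCL20 the adjusted p was between 0.0217 and 0.316 in the fits without 1 library, 0.0916 with no filter on low values and 0.105 with the vectors as 1 group. For NOTCH1 the adjusted p was 0.0777 without MRTFB dN replicate 1. For EGFR the adjusted p was 0.064 without MRTFB dN replicate 1.

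Immediate early genes, many of which SRF controls through TCF cofactors after serum, rose in part. Of 26 measured, 8 rose and 3 fell, 7 and 3 of them outside the range, beside 17.7% and 11.3% of all tested loci that rose and fell. For immediate early genes the number that rose was 5 in the fit on the 6 compared libraries or without Hygro vector replicate 1, 4 with the vectors as 1 group or without MRTFB dN replicate 1, and 3 without MRTFB dN replicate 2. Of these immediate early genes, the number that fell was 1 in the fit on the 6 compared libraries or with the vectors as 1 group or without MRTFB dN replicate 1. DUSP5, a phosphatase of ERK, had 101 and 79.8 FPKM in MRTFB dN, against 2.13 to 8.57 in the vectors (4.18 ± 0.33, adjusted p = 1.15e-05). SGK1, a serum-induced kinase, had 193 and 232 FPKM in MRTFB dN, against 9.28 to 21.1 in the vectors (3.93 ± 0.28, adjusted p = 5.52e-06). DUSP2, another phosphatase of MAP kinases, had 9.52 and 27.2 FPKM in MRTFB dN, against 0.256 to 1.34 in the vectors (3.38 ± 0.40, adjusted p = 2.05e-04). These lay far above all vector libraries. FOS, the classic serum response gene, had 3.37 and 7.73 FPKM in MRTFB dN, against 6.03 and 18.3 in the Puro and 5.84 and 3.82 in the Hygro vector, which overlap (-0.41 ± 0.51, adjusted p = 0.573). EGR1, another TCF target, had 4.76 and 4.64 FPKM in MRTFB dN, against 8.38 and 10.4 in the Puro and 6.57 and 6.19 in the Hygro vector, below the vectors but not past the test (-0.62 ± 0.41, adjusted p = 0.284). MYC, a growth-driving transcription factor, fell, with 20.9 and 17.6 FPKM in MRTFB dN, against 70 and 138 in the Puro and 63.9 and 82.8 in the Hygro vector (-2.09 ± 0.36, adjusted p = 0.00236). The TCF genes ELK1, ELK3 and ELK4 had log2 fold changes of -0.32, -0.37 and 0.65, with adjusted p of 0.333, 0.398 and 0.0721.

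Of the 12 lowest fold changes, 5 were of genes for squamous differentiation, the keratinising programme of stratified epithelium, and 3 of metallothioneins. Of 28 squamous genes measured, 0 rose and 21 fell against both vectors, 14 of them below every vector value, with a median log2 fold change of -2.25. For squamous genes the number that fell was 13 in the fit on the 6 compared libraries, 11 with the vectors as 1 group, 12 without MRTFB dN replicate 1, and 8 without MRTFB dN replicate 2. S100A8 and S100A9 encode the 2 chains of calprotectin. S100A9 had 9.48 and 8.65 FPKM in MRTFB dN, against 1050.5 and 972 in the Puro and 753 and 1021 in the Hygro vector (-6.55 ± 0.36, adjusted p = 9.30e-07). S100A8 had 0.821 and 2.47 FPKM in MRTFB dN, against 265 and 338 in the Puro and 189 and 308 in the Hygro vector (-6.75 ± 1.06, adjusted p = 0.00124). No MRTFB dN library reached 10 FPKM of either chain, and no vector library was under 100 FPKM. CSTA, cystatin A of the cornified envelope, had 36 and 16.7 FPKM in MRTFB dN, against 269 and 189 in the Puro and 606 and 781 in the Hygro vector (-3.95 ± 0.34, adjusted p = 2.13e-05). The protein cross-linker TGM1, in a shared locus, had 37.4 and 28.9 FPKM in MRTFB dN, against 46.4 to 138 in the vectors (-1.38 ± 0.25, adjusted p = 0.00274). SLPI, a secreted protease inhibitor, had 895 and 734 FPKM in MRTFB dN, against 1178 to 7304 in the vectors (-1.88 ± 0.51, adjusted p = 0.0209). S100A7, psoriasin, had 0.763 and 0 FPKM in MRTFB dN, against 11.1 to 135 in the vectors (-4.56 ± 0.84, adjusted p = 0.00314). For S100A7 the adjusted p was 0.0517 without MRTFB dN replicate 2. SPRR1B, an envelope precursor, had 2.27 and 1.02 FPKM in MRTFB dN, against 7.17 to 260.2 in the vectors (-3.89 ± 1.04, adjusted p = 0.0205). For SPRR1B the adjusted p was 0.123 without MRTFB dN replicate 1, 0.138 without MRTFB dN replicate 2, 0.0513 without Puro vector replicate 1, 0.0581 with no filter on low values and 0.0529 in the fit on the 6 compared libraries. For SLPI the adjusted p was 0.12 without MRTFB dN replicate 1, 0.125 without MRTFB dN replicate 2, 0.0896 with no filter on low values, 0.0919 in the fit on the 6 compared libraries and 0.114 with the vectors as 1 group.

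This list depended on the vector. Against the Puro vector 7 of its 28 genes fell and against the Hygro vector 21 did. In the test of the vectors against each other 13 of the 28 were lower in the Puro than in the Hygro vector and 0 were higher. KLK7, a kallikrein protease that acts in shedding of the outer skin layer, had 4.13 and 0 FPKM in MRTFB dN, against 25.1 and 1.21 in the Puro and 1032 and 267 in the Hygro vector. Puro vector replicate 2 lay between the MRTFB dN values of KLK7, and the other vector libraries lay above both. Its log2 fold change was -1.75 against the Puro vector (adjusted p = 0.254) and -7.86 against the Hygro vector (adjusted p = 9.87e-04). ELF3, an epithelial ETS factor, had 15.2 and 12.4 FPKM in MRTFB dN, against 29.1 and 29.3 in the Puro and 249.6 and 209 in the Hygro vector, lowest in MRTFB dN and highest in the Hygro vector (-2.50 ± 0.33, adjusted p = 3.88e-04). For ELF3 the adjusted p was 0.0638 with the vectors as 1 group. Against both vectors the fold change of KLK7 was -4.80 ± 0.99, adjusted p = 0.00584, and that p was 0.0888 without MRTFB dN replicate 2 and 0.103 with the vectors as 1 group.

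Of 18 epithelial lineage factors 2 rose and 4 fell, beside 17.7% and 11.3% of all tested loci, and all of these lay outside the range. For the lineage factors the number that rose was 0 with the vectors as 1 group or without MRTFB dN replicate 1, and 1 without MRTFB dN replicate 2. Besides ELF3, EHF, a related ETS factor, had 1.58 and 1.48 FPKM in MRTFB dN, against 11 to 27.4 in the vectors (-2.74 ± 0.29, adjusted p = 8.66e-05). GRHL1, a grainyhead factor of the epidermis, had 1.23 and 1.49 FPKM in MRTFB dN, against 2.03 to 7.82 in the vectors (-1.31 ± 0.24, adjusted p = 0.0034). TP63, the p63 gene of basal epithelium, had 1.93 and 1.84 FPKM in MRTFB dN, against 10.4 and 9.2 in the Puro and 3.55 and 5.74 in the Hygro vector (-1.42 ± 0.24, adjusted p = 0.00178). Of the factors that rose, SOX9 had 38.8 and 24.7 FPKM in MRTFB dN, against 0.593 to 18 in the vectors (2.28 ± 0.50, adjusted p = 0.00768). GATA3 had 12.8 and 15.4 FPKM in MRTFB dN, against 3.13 to 11.4 in the vectors (1.13 ± 0.26, adjusted p = 0.0108). Their adjusted p was 0.119 without MRTFB dN replicate 1 and 0.0956 with the vectors as 1 group for SOX9 and 0.0632 without MRTFB dN replicate 1, 0.0884 without MRTFB dN replicate 2 and 0.0775 with the vectors as 1 group for GATA3. Keratins went both ways, with 5 of 15 measured loci higher and 3 lower. For keratins the number that rose was 2 with no filter on low values or without MRTFB dN replicate 2, and 1 with the vectors as 1 group or without MRTFB dN replicate 1. Of these keratins, the number that fell was 1 with the vectors as 1 group or without MRTFB dN replicate 2. KRT80 had 234 and 139.7 FPKM in MRTFB dN, against 0.451 and 1.44 in the Puro and 5.96 and 9.59 in the Hygro vector (5.50 ± 0.34, adjusted p = 2.15e-06). KRT15, a keratin of basal cells in a shared locus, had 24.3 and 3.06 FPKM in MRTFB dN, against 515 and 83.9 in the Puro and 1285 and 1258 in the Hygro vector (-5.67 ± 1.01, adjusted p = 0.00259). For KRT15 the adjusted p was 0.0517 without MRTFB dN replicate 2. KRT17, a stress keratin, had 43206 and 22205 FPKM in MRTFB dN, against 1139 and 606 in the Puro and 7662 and 12743 in the Hygro vector (3.43 ± 0.90, adjusted p = 0.0181). For KRT17 the adjusted p was 0.188 without MRTFB dN replicate 1, 0.0699 without MRTFB dN replicate 2, 0.105 with no filter on low values, 0.0503 in the fit on the 6 compared libraries and 0.0945 with the vectors as 1 group. KRT8, a keratin of simple epithelium, had 8041 and 5877 FPKM in MRTFB dN, against 122 and 133 in the Puro and 739.6 and 1093 in the Hygro vector. It lay above all vectors but did not pass (4.34 ± 3.69, adjusted p = 0.399), in a fit where single libraries of other MRTFB groups list it at 0. For GRHL1 the adjusted p was 0.0517 without MRTFB dN replicate 1.

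Metallothioneins, which bind zinc and copper, were low in MRTFB dN: 3 of the 4 measured genes fell against both vectors and against each vector, all below every vector value. For metallothioneins the number that fell was 1 without MRTFB dN replicate 1. MT2A had 47.5 and 138 FPKM in MRTFB dN, against 1457 and 10521 in the Puro and 1285 and 1336 in the Hygro vector (-4.79 ± 0.78, adjusted p = 0.00158). For MT2A the adjusted p was 0.0515 without MRTFB dN replicate 1. MT1E had 5.23 and 20.2 FPKM in MRTFB dN, against 428 and 1288 in the Puro and 158 and 182 in the Hygro vector (-4.95 ± 0.56, adjusted p = 1.44e-04). MT1X had 2.27 and 6.21 FPKM in MRTFB dN, against 45.7 to 434 in the vectors (-4.43 ± 0.85, adjusted p = 0.00407). For MT1X the adjusted p was 0.0818 without MRTFB dN replicate 1. Puro vector replicate 2 was the highest library for each of these genes and the MRTFB dN libraries the lowest. SAA1, an acute phase protein in none of the lists, had 115 and 162 FPKM in MRTFB dN, against 1376 to 3488 in the vectors (-3.96 ± 0.54, adjusted p = 5.30e-04).

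Of 26 p53 targets 3 rose and 7 fell, 2 and 7 of them outside the range, beside 17.7% and 11.3% of all tested loci that rose and fell. GDF15, a stress cytokine, had 2.81 and 3.51 FPKM in MRTFB dN, against 74.9 and 139 in the Puro and 30.5 and 14.2 in the Hygro vector (-3.52 ± 0.43, adjusted p = 2.61e-04). PLK3, a polo-like kinase, had 1.24 and 2.17 FPKM in MRTFB dN, against 7.75 to 14.2 in the vectors (-2.01 ± 0.27, adjusted p = 4.55e-04). MDM2, the ligase that degrades p53, fell with them, with 7.42 and 11.8 FPKM in MRTFB dN, against 17.1 to 59.9 in the vectors (-1.64 ± 0.34, adjusted p = 0.00639). CDKN1A, the cell-cycle inhibitor p21, went the other way, with 610.1 and 497 FPKM in MRTFB dN, against 61.7 and 43.7 in the Puro and 316 and 353 in the Hygro vector (2.05 ± 0.32, adjusted p = 0.00119). It lay above all vectors, and its log2 fold change was 3.38 against the Puro vector (adjusted p = 1.47e-04) and 0.72 against the Hygro vector (adjusted p = 0.221), and the vectors themselves differed (Puro against Hygro -2.66, adjusted p = 0.00842). For MDM2 the adjusted p was 0.104 without MRTFB dN replicate 1. For CDKN1A against both vectors it was 0.0957 with the vectors as 1 group. For p53 targets the number that rose was 0 with the vectors as 1 group, and 1 without MRTFB dN replicate 1. Of these p53 targets, the number that fell was 3 without MRTFB dN replicate 1.

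**Figure D5:**
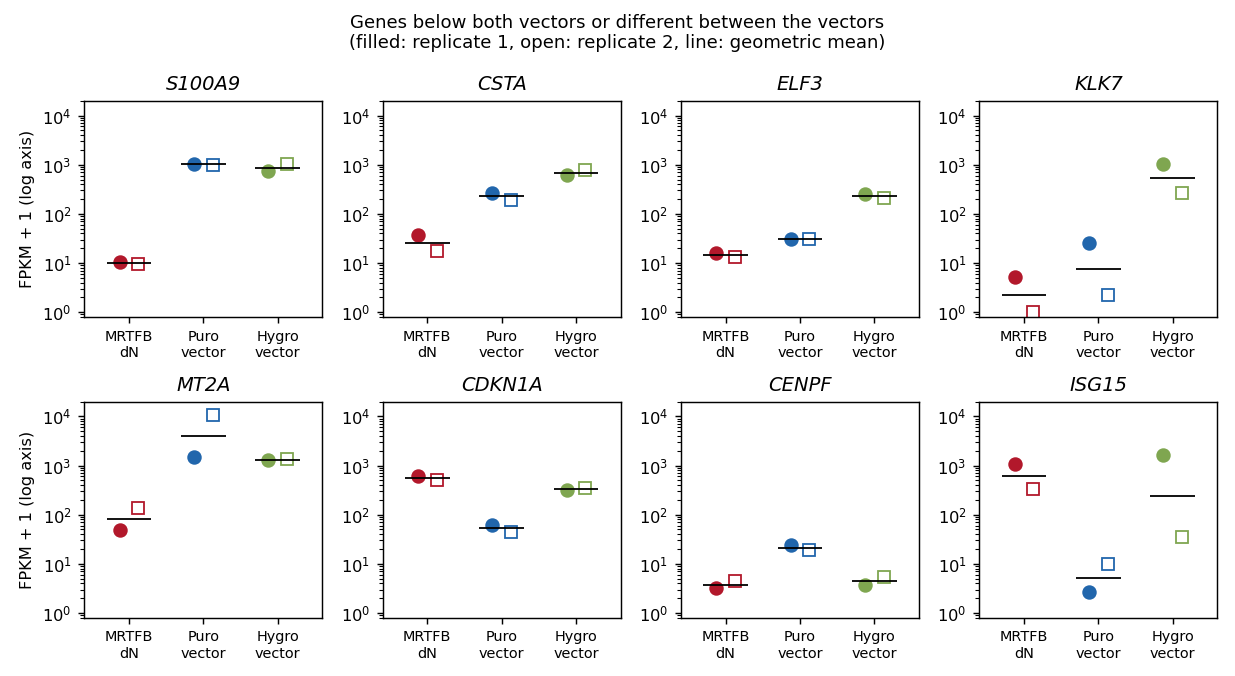
FPKM + 1 (log axis) of 8 genes in MRTFB dN, the Puro vector and the Hygro vector, filled for replicate 1 and open for replicate 2, with a line at the geometric mean. S100A9 and MT2A are lower in MRTFB dN than in both vectors, while KLK7, CDKN1A, CENPF and ISG15 take a different level in each vector or in the libraries of the Hygro vector.

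In several groups the 2 vectors differed from each other, and the comparison with MRTFB dN went with the vector chosen. Mitosis genes had 1 member of 32 higher and 8 lower against the Puro vector, and 1 higher and 0 lower against the Hygro vector. Over all tested loci the shares were 21.6% higher and 14.6% lower, and 11.5% higher and 6.56% lower. Between the vectors 8 of the 32 were higher in the Puro than in the Hygro vector, beside 5.07% of all tested loci. CENPF, a kinetochore protein, had 2.2 and 3.39 FPKM in MRTFB dN, against 23.7 and 17.7 in the Puro and 2.79 and 4.46 in the Hygro vector, with the lowest Hygro value between the MRTFB dN values (-1.40 ± 0.31, adjusted p = 0.00836). MKI67, the proliferation antigen Ki-67, had 5.38 and 5.21 FPKM in MRTFB dN, against 17.3 and 15.3 in the Puro and 4.73 and 8.13 in the Hygro vector (-0.83 ± 0.34, adjusted p = 0.0891). ANLN, anillin, which binds actin in the cleavage furrow, was the exception that rose against each vector, with 101 and 72.9 FPKM in MRTFB dN, against 6.28 to 21.1 in the vectors (2.50 ± 0.37, adjusted p = 9.33e-04). Of 37 DNA replication genes 4 rose and 2 fell, beside 17.7% and 11.3% of all tested loci. For replication genes the number that rose was 1 with no filter on low values or without MRTFB dN replicate 2 or Puro vector replicate 1, 0 in the fit on the 6 compared libraries or without MRTFB dN replicate 1, 2 with the vectors as 1 group or without Hygro vector replicate 1, and 7 without Hygro vector replicate 2. Of these replication genes, the number that fell was 0 with no filter on low values or in the fit on the 6 compared libraries or with the vectors as 1 group or without either MRTFB dN replicate or Puro vector replicate 1, and 1 without Hygro vector replicate 2. For CENPF the adjusted p against both vectors was 0.121 without MRTFB dN replicate 1 and 0.171 with the vectors as 1 group.

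Of 13 heat shock genes measured, 11 rose against the Puro vector and 1 against the Hygro vector. The shares of all tested loci that rose were 21.6% and 11.5%. Between the vectors 9 of the 13 were lower in the Puro than in the Hygro vector. Against both vectors 5 rose and 0 fell, and the number that rose was 2 with the vectors as 1 group. It was also smaller without either MRTFB dN replicate. HSPB1, a small heat shock protein that acts on actin filaments, had 3936 and 1523 FPKM in MRTFB dN, against 177 and 98.3 in the Puro and 527 and 1136 in the Hygro vector (2.93 ± 0.51, adjusted p = 0.0022). HSPA8, the constitutive chaperone, had 797 and 639 FPKM in MRTFB dN, against 248 and 212 in the Puro and 553 and 899.9 in the Hygro vector (1.63 against the Puro vector, adjusted p = 0.0153, and 0.02 against the Hygro vector, adjusted p = 0.988). Of 27 cholesterol synthesis genes 14 were higher and 0 lower against the Puro vector, and 3 higher and 1 lower against the Hygro vector. Over all tested loci the shares that rose were 21.6% and 11.5%, so the Hygro count was near that share. Against both vectors 10 rose and 0 fell. The number that rose was 6 in the fit on the 6 compared libraries or with the vectors as 1 group. It was also smaller without either MRTFB dN replicate. The number that fell was 1 with median-of-ratios scaling or the replicate block. HMGCS1, an early enzyme of the pathway, had 46.1 and 35.3 FPKM in MRTFB dN, against 12.6 and 2.98 in the Puro and 21.2 and 55.3 in the Hygro vector (1.36 ± 0.56, adjusted p = 0.0948).

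Hypoxia and glycolysis genes rose against both vectors in 15 of 29 and fell in 1, with 13 and 1 of them outside the range. For hypoxia genes the number that rose was 9 without MRTFB dN replicate 1. BNIP3, a mitophagy receptor, had 189.6 and 70.3 FPKM in MRTFB dN, against 6.94 to 16.6 in the vectors (3.40 ± 0.48, adjusted p = 6.25e-04). ADM, adrenomedullin, had 183 and 218 FPKM in MRTFB dN, against 10.9 to 32.1 in the vectors (3.17 ± 0.40, adjusted p = 3.29e-04). CA9, a carbonic anhydrase that is a standard hypoxia marker, had 3.63 and 7.03 FPKM in MRTFB dN, against 6.69 and 101 in the Puro and 0.986 and 1.15 in the Hygro vector, which overlap (-0.32 ± 0.89, adjusted p = 0.811). VEGFA, the angiogenic growth factor, had 26.7 and 37.3 FPKM in MRTFB dN, against 13.5 to 75.7 in the vectors (0.06 ± 0.41, adjusted p = 0.927). DDIT4, an inhibitor of mTOR, fell, with 98.9 and 103 FPKM in MRTFB dN, against 257 to 734 in the vectors (-2.01 ± 0.36, adjusted p = 0.00277). Of 25 genes of the unfolded protein and integrated stress responses, 5 rose and 3 fell, beside 17.7% and 11.3% of all tested loci. For stress response genes the number that rose was 3 in the fit on the 6 compared libraries or without MRTFB dN replicate 1, and 10 without Puro vector replicate 2. Of these stress response genes, the number that fell was 1 with the vectors as 1 group or without MRTFB dN replicate 2, and 0 without MRTFB dN replicate 1. The stress factor ATF4 had 314 and 358 FPKM in MRTFB dN, against 124 to 169.9 in the vectors (1.21 ± 0.26, adjusted p = 0.00784) and DDIT3, its target CHOP, in a shared locus, had 2.04 and 4.83 FPKM in MRTFB dN, against 3.71 to 13.3 in the vectors (-1.03 ± 0.28, adjusted p = 0.0227). For ATF4 the adjusted p was 0.0678 in the fit on the 6 compared libraries. For DDIT3 it was 0.276 without MRTFB dN replicate 1, 0.0576 without Hygro vector replicate 1, 0.0656 in the fit on the 6 compared libraries and 0.146 with the vectors as 1 group.

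Epithelial junction genes gave 10 of 31 higher and 4 lower against both vectors, with 12 higher and 1 lower against the Puro vector and 4 higher and 6 lower against the Hygro vector. CTNNA1, alpha-catenin, which ties cadherins to actin, had 576 and 359 FPKM in MRTFB dN, against 57.7 to 204 in the vectors (2.07 ± 0.32, adjusted p = 0.0012). PKP2, a desmosomal plakophilin, had 71.3 and 41.8 FPKM in MRTFB dN, against 8.36 to 14.2 in the vectors (2.31 ± 0.33, adjusted p = 6.79e-04). TJP3, a tight junction scaffold, had 0.612 and 0.415 FPKM in MRTFB dN, against 1.94 to 9.29 in the vectors (-1.75 ± 0.32, adjusted p = 0.00311). CLDN1, claudin-1, had 26.1 and 21.4 FPKM in MRTFB dN, against 28.5 and 56.7 in the Puro and 117 and 184 in the Hygro vector (-1.67 ± 0.36, adjusted p = 0.007). For CLDN1 the adjusted p was 0.0521 without MRTFB dN replicate 1, 0.0673 without MRTFB dN replicate 2 and 0.0823 with the vectors as 1 group. For junction genes the number that rose was 6 with no filter on low values or without Hygro vector replicate 1 or Puro vector replicate 1, 4 in the fit on the 6 compared libraries or without MRTFB dN replicate 2, 3 with the vectors as 1 group, and 2 without MRTFB dN replicate 1. Of these junction genes, the number that fell was 1 with the vectors as 1 group or without either MRTFB dN replicate.

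Interferon response genes rested on single libraries. Of 30 measured, 5 rose and 1 fell, beside 17.7% and 11.3% of all tested loci, and 2 of them lay outside the range. Hygro vector replicate 1 was the highest of the 6 libraries for 23 of the 30. For interferon genes the number that rose was 2 with no filter on low values or in the fit on the 6 compared libraries, 1 with the vectors as 1 group or without MRTFB dN replicate 2, 0 without MRTFB dN replicate 1, 3 without Puro vector replicate 1, and 11 without Hygro vector replicate 1. Of these interferon genes, the number that fell was 0 with no filter on low values or with the vectors as 1 group or without either MRTFB dN replicate or Hygro vector replicate 1 or Puro vector replicate 2, and 4 without Hygro vector replicate 2. ISG15, an interferon-induced ubiquitin-like protein, had 1072 and 336 FPKM in MRTFB dN, against 1.66 and 9.09 in the Puro and 1642 and 34.3 in the Hygro vector, so MRTFB dN replicate 1 and Hygro vector replicate 1 were high and the others lower (4.09 ± 1.26, adjusted p = 0.0351). For ISG15 the adjusted p was 0.295 without MRTFB dN replicate 1, 0.092 without MRTFB dN replicate 2, 0.0867 without Puro vector replicate 1, 0.0861 with no filter on low values, 0.0859 in the fit on the 6 compared libraries and 0.161 with the vectors as 1 group. OAS2, a sensor of double-stranded RNA, had 3.26 and 0.366 FPKM in MRTFB dN, against 0.13 and 0.0769 in the Puro and 49.3 and 0.103 in the Hygro vector (-0.25 ± 1.29, adjusted p = 0.903). IFI27 had 2917 and 1789 FPKM in MRTFB dN, against 2.85 and 3.26 in the Puro and 1664 and 12.9 in the Hygro vector (6.52 ± 1.51, adjusted p = 0.0101). For IFI27 the adjusted p was 0.12 without MRTFB dN replicate 1 and 0.0681 without MRTFB dN replicate 2. Of 13 replication-dependent histone loci 1 rose and 0 fell. For histone loci the number that rose was 0 with the vectors as 1 group or without MRTFB dN replicate 1, and 3 without Hygro vector replicate 1 or Puro vector replicate 1.

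The MRTFB dN libraries also differed from each other. Replicate 1, which held more MKL2, was the higher of them in 6839 of the 12578 tested loci, in 1367 of the 2054 that rose outside the range and in 404 of the 1191 that fell outside it. Among the contractile genes that rose outside the range it was higher in 20 of 22, and among the actin-binding genes in 24 of 25. This order was not particular to these lists. Replicate 1 was also higher in 8 of 8 Hippo pathway genes, 5 of 5 keratins and 11 of 13 hypoxia genes that rose outside the range. The matrix genes were the reverse, with replicate 1 higher in 2 of 13, and the YAP/TEAD targets lay between, at 9 of 13. No test of this order was made, since it rests on 1 library against 1.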

How the data were processed

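RNA of MCF-10A cells was made into strand-specific poly(A) libraries and read from both ends on an Illumina NextSeq, per the labels' protocols. The deposited table gives FPKM for 34071 loci, made by the authors with Bowtie, TopHat, Cufflinks and Cuffnorm on hg19, per the submitters' processing notes. Versions, annotation, library scaling and strand setting are not given in the sources used here. FPKM carry no counts, so no counting interval can be given, and for short loci few reads can give large FPKM. All columns were matched to samples by name.

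The 12578 named loci that reached 1 FPKM in 2 or more of the 6 compared libraries were fitted on log2(FPKM + 1) with limma 3.58.1 in R 4.3.3 (two-sided moderated test, group means, intensity trend). The fit used 12 libraries, leaving out MRTFB dN dPY, in which 1 library lists 1903 tested loci at 0, and had 6 residual degrees of freedom. P-values were adjusted by Benjamini and Hochberg over all tested loci, with a threshold of 0.05. The fit was tested on simulated data. Tables and figures used Python 3.11.15, numpy 2.4.6, pandas 2.3.3 and matplotlib 3.10.9. Of the tested loci 954 hold several genes and 728 share their name with another locus. For such a name the locus with the highest mean is given. Among the genes described, these shared names are EDN1, INHBA, TEAD4, CSRP1, ADM, MYC, EGFR, MDM2, TGFBR2 and PFN2.

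The members and gene lists were chosen with earlier results of these data known, so counts of list members are descriptions. Genes were named by rule: SRF, MRTF, TCF, YAP, TAZ and TEAD genes; the 12 highest and 12 lowest fold changes among loci past the threshold, outside the vector range, at a mean of 3 FPKM or more, with 1 gene and no short RNA; up to 4 such members of each list, plus the member with the largest difference between vectors; and a set of known targets and markers. A further 52 genes were named after their values were seen. Some genes that the rule takes are not reported here. The replicate numbers of the labels were not used as a block. Relative depth was taken from the most frequent ratio of low values. Alternatives were median-of-ratios scaling, a pseudocount of 0.1, no filter, the 6 compared libraries alone, no trend, a replicate block, the 4 vector libraries as 1 group, each library left out, and, chosen after seeing the data, isolated zeros as missing.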

Additional observations from a re-analysis of the deposited data

How the results depend on the processing

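Against both vectors, 2227 loci rose and 1420 fell, and leaving out 1 library at a time, which assumes that a lone sample varies like the other groups, gave 1097 to 2502 that rose and 335 to 1990 that fell. The fit on the 6 compared libraries gave 835 that fell, and the 4 vector libraries as 1 group gave 702. Against the Puro vector the counts without 1 library were 1241 to 2747 higher and 477 to 2045 lower, and the fit on the 6 compared libraries gave 1193 lower. Against the Hygro vector they were 917 to 1721 higher and 347 to 1045 lower, and the fit on the 6 compared libraries gave 958 higher and 437 lower. That fit and the leave-one-out fits hold fewer libraries; for the vectors as 1 group the cause was not tested. All other counts over all tested loci stayed within 1.5 times, and counts of list members that moved by more stand beside them in the report. With the replicate block 2272 loci rose and 1523 fell against both vectors. Deviations of same-numbered libraries correlated at -0.0033 (MRTFB dN and Puro), -0.0963 (MRTFB dN and Hygro) and 0.255 (Puro and Hygro). With 2 libraries a group these values cannot tell whether the replicate numbers pair the samples. Of the called genes named, the block lost only TGFBR2 (adjusted p = 0.0546), so that 1 YAP/TEAD target fell. The block also gave 2 matrix genes that fell. Scaling by the median of ratios shifted the median log2 fold change against the Puro vector to -0.01, where the values as deposited gave 0.11, and turned no named gene round. Of 178 named genes past the threshold, 76 lost it under some alternative and 72 in a leave-one-out fit, 65 of them without MRTFB dN replicate 1 and 46 without MRTFB dN replicate 2. KRT8 passed with isolated zeros as missing, an alternative chosen after seeing the data. With 2 libraries a group and no counts, changes of low genes are the least certain.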

Other observations

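Of the 122 loci that rose 16-fold or more and lay above every vector value, 74 belong to none of the gene lists, and the genes named here were chosen from such loci after their values were seen. Several are known from smooth muscle and the vessel wall. KCNMB1, the beta subunit of the calcium-activated potassium channel of smooth muscle, had 32.2 and 17.8 FPKM in MRTFB dN, against 0 to 0.0439 in the vectors (4.63 ± 0.22, adjusted p = 4.25e-07). PLN, phospholamban, which regulates the calcium pump of heart and smooth muscle, had 28.1 and 25.9 FPKM in MRTFB dN, against 0 to 1.46 in the vectors (4.40 ± 0.25, adjusted p = 1.20e-06). MCAM, an adhesion molecule of pericytes and endothelium, had 143 and 214 FPKM in MRTFB dN, against 0.211 to 4.75 in the vectors (6.44 ± 0.46, adjusted p = 5.87e-06). TNMD, tenomodulin of tendon, had 77.2 and 310.4 FPKM in MRTFB dN, against 0 and 0.0528 in the Puro and 0 and 0 in the Hygro vector (7.27 ± 0.42, adjusted p = 1.31e-06). It was listed at 0 in 3 vector libraries, and its MRTFB dN values differed from each other as well. Secreted factors and receptors were among them too: CHI3L1, a chitinase-like protein, had 354 and 159.9 FPKM in MRTFB dN, against 0.0415 to 0.534 in the vectors (7.57 ± 0.29, adjusted p = 9.44e-08). IGF1, insulin-like growth factor, had 50.5 and 31.9 FPKM in MRTFB dN, against 0 to 0.398 in the vectors (5.24 ± 0.22, adjusted p = 1.88e-07). EGF, epidermal growth factor, had 24.2 and 26 FPKM in MRTFB dN, against 0.0869 to 0.145 in the vectors (4.55 ± 0.16, adjusted p = 5.88e-08). TLR4, the receptor of bacterial endotoxin, had 34.2 and 21.9 FPKM in MRTFB dN, against 0.0784 to 0.395 in the vectors (4.58 ± 0.23, adjusted p = 4.63e-07). The actin bundling plastins PLS3 and LCP1 had 1816 and 901 FPKM in MRTFB dN, against 32.5 to 146 in the vectors (4.15 ± 0.43, adjusted p = 9.02e-05) and 748 and 494 FPKM in MRTFB dN, against 27.6 to 65.5 in the vectors (4.09 ± 0.33, adjusted p = 1.47e-05).

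Among the genes that fell outside the lists, ABCA12, the lipid transporter of the skin barrier, had 1.38 and 1.2 FPKM in MRTFB dN, against 16.3 to 37.8 in the vectors (-3.59 ± 0.30, adjusted p = 2.01e-05). EMP1, an epithelial membrane protein, had 95.4 and 44.5 FPKM in MRTFB dN, against 239.7 and 306 in the Puro and 1989.6 and 1945 in the Hygro vector (-3.46 ± 0.68, adjusted p = 0.00446). Its Hygro values were well above its Puro values, and its log2 fold change was -2.04 against the Puro vector (adjusted p = 0.0659) and -4.89 against the Hygro vector (adjusted p = 0.00175). For EMP1 the adjusted p against both vectors was 0.0669 without MRTFB dN replicate 2. MGST1, a microsomal glutathione transferase, had 41.1 and 67.8 FPKM in MRTFB dN, against 364 to 924 in the vectors (-3.60 ± 0.41, adjusted p = 1.63e-04). S100A14, a calcium-binding protein of epithelium, had 114 and 67.1 FPKM in MRTFB dN, against 484 to 1943 in the vectors (-3.27 ± 0.49, adjusted p = 8.97e-04). ACTA2-AS1, antisense to ACTA2, had 8.13 and 25.1 FPKM in MRTFB dN, against 0 to 0.0817 in the vectors (3.91 ± 0.33, adjusted p = 2.01e-05). Its order between the MRTFB dN libraries was the reverse of that of ACTA2, and the strand setting of the counting is not given in the sources used here.

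Of 894 loci without a gene name at 1 FPKM or more in at least 2 of the 6 libraries, 208 (23.3%) lay above every vector value and 169 (18.9%) below in both MRTFB dN libraries. These were not tested.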
